A study of Mus musculus with 13 samples.

Results

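Blood and lymphatic vessel genes were followed on 13 arrays of squamous epithelium from mouse esophagus and forestomach. The 32 members are genes of endothelial cells, the cells that line blood and lymphatic vessels, chosen by gene symbol. Each was read by 1 probe set, a group of array probes summarised to a single value. They are 32 of 19934 genes with a probe set of their own on the array, and 31 passed the filter used for testing (log2 intensity above 5 on at least 3 arrays), as did 15875 genes in all. Prox1 did not pass. By role they fall into 25 pan-endothelial genes, 4 genes of sprouting tip cells and apelin signalling (Apln, Aplnr, Angpt2 and Esm1) and 3 lymphatic genes (Lyve1, Prox1 and Flt4).

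All animals carried L2-Cre, a transgene known for driving Cre recombinase in squamous epithelium of the mouth, esophagus and forestomach, on a mixed C57Bl/6 and 129 strain background. The controls were Cre/p120 +/+ and gave 3 esophagus and 3 forestomach samples from the same 3 animals, 214, 216 and 217. The p120 flox/flox animals had floxed alleles of the gene of p120-catenin, a protein that holds cadherins at cell junctions. They gave 4 esophagus samples (animals 193, 307, 313 and 335) and 3 samples labelled as forestomach masses from other animals (412, 426 and 510). Ages were not given in the sources used here. The epithelium was peeled off after dispase, an enzyme that loosens it from the tissue beneath, so vessels were not the tissue being collected. No flox/flox forestomach without a mass was among them, so genotype and mass formation cannot be told apart.

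Endothelial cells sense vascular endothelial growth factor (VEGF) through the receptors Kdr and Flt1 and angiopoietins through Tek, and they hold together through VE-cadherin (Cdh5) and claudin-5. New vessels grow from tip cells, which lead the sprout and make Esm1, Angpt2 and Apln. Lymphatic vessels depend on the transcription factor Prox1 and the VEGF-C receptor Flt4, and many carry the hyaluronan receptor Lyve1. In the esophagus and forestomach these vessels lie under the epithelium and not within it. Several members are also made by other cells: Cd34 by fibroblasts, Mcam by pericytes and smooth muscle, Lyve1 and Eng by macrophages, and Pecam1 by leukocytes and platelets.

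Across the series the median intensity of an array lay between 65.3 and 72.4, and arrays of the same group correlated at 0.918 to 0.992 over the genes tested, lowest among the masses. Ctnnd1, the floxed gene, read 10.21 to 10.50 in control and 9.95 to 10.13 in flox/flox esophagus (adjusted p = 0.637 by limma), and 10.14 to 10.40 in control forestomach and 9.51 to 9.91 in masses (adjusted p = 0.0145). Where its probes lie relative to the deleted part was not known here, and the value checks little. Squamous markers such as Krt5, Krt14 and Trp63 were present on every array, with a list mean of 11.20 to 12.07. On 3 esophagus arrays, control 214 and flox/flox 307 and 335, striated muscle genes stood at 8.04 to 9.65 against 5.51 to 5.77 on the other 4. Fewer endothelial cells and less RNA per cell cannot be told apart in such bulk samples.

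Promoters were searched in every member with a matched start site, whatever its levels. Those shown here for their letters were picked by hand, and all of them hold a match. RefSeq start sites on GRCm38.p6 were matched for 19 of the 32 members. The 250 bases before each start were searched on both strands for AGGAAG, a core bound by ETS factors such as the member Erg, and for AACAAT, a core bound by SOX factors such as the members Sox17 and Sox18. AGGAAG was found before 10 of the 19 matched members (52.6%) and before 32.3% of 27025 genes in the table, and AACAAT before 3 of the 19 (15.8%) and 10.9% of genes. A match is a run of letters and not a binding site. The 3 promoters below are those of the TGF-beta co-receptor Eng (chr2:32646345-32646594, + strand, 2 matches), the orphan receptor Tie1 (chr4:118489850-118490099, - strand, 1 match) and the secreted vessel factor Egfl7 (chr2:26580833-26581082, + strand, 3 matches), 5′ to 3′ on the strand of the gene up to the base before the start, with AGGAAG or its reverse complement in capitals.
Eng: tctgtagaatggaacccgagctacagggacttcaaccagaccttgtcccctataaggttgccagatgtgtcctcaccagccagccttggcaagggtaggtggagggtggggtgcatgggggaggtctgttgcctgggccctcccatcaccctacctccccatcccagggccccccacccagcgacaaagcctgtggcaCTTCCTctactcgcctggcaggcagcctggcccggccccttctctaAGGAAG
Tie1: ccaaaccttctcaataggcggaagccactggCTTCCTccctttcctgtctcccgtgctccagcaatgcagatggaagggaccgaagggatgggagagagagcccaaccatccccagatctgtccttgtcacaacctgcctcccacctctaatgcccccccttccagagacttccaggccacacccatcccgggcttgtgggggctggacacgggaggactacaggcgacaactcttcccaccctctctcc
Egfl7: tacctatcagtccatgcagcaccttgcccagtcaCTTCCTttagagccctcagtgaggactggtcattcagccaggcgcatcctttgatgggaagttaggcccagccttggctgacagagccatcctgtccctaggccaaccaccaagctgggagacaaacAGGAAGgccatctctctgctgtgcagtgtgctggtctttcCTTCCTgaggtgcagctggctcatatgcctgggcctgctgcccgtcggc

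Short stretches around a match are shown for 3 further members, with the matched letters in capitals. They are the VEGF receptor Flt1, whose levels set it apart from the other members, the sialomucin Emcn, which held both motifs, and the guidance receptor Robo4. The Flt1 stretches are chr5:147726123-147726152 and chr5:147726047-147726076 (- strand), with matches at positions -129 and -53 from the start. The Emcn stretches are chr3:137340973-137341002 (AGGAAG at -93) and chr3:137341016-137341045 (AACAAT at -50), and the Robo4 stretch is chr9:37401911-37401940 (AGGAAG at -49), all on the + strand. The Flt1 and Robo4 stretches lie inside the annotated genes, chr5:147561604-147726438 and chr9:37401902-37414023. The starts used for Flt1 and Robo4 are thus start sites within the gene and not its outer edge. The Emcn stretches end before its annotated gene, chr3:137341062-137431069, but the start used for Emcn also lies within the gene.
Flt1 distal: cgcccctccgggAGGAAGaagagggtaggt
Flt1 proximal: aggtgccggggtAGGAAGtgggctggggaa
Emcn ETS core: agtggctgccaaAGGAAGagagaggaaaaa
Emcn SOX core: gtaaggggctgaAACAATaaatctcctctc
Robo4 ETS core: tgagggccaggcAGGAAGcatccgtttcct

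Pan-endothelial genes stood high on all 3 forestomach masses and on 3 of the 7 esophagus arrays. The mean log2 intensity of the 25 genes was 7.21, 7.16 and 6.55 in masses 412, 426 and 510, and 6.32, 5.88 and 5.82 in forestomach controls 214, 216 and 217. Esophagus control 214 had 7.08, and of the flox/flox esophagus arrays 307 had 6.74 and 335 had 7.10, while the other 4 had 5.60 to 5.82. Thus every mass lay above every forestomach control, while the esophagus genotypes overlapped over their whole range. The 4 tip and apelin genes were flatter, with means of 5.41 to 5.93 in esophagus, 5.61 to 5.69 in control forestomach and 5.76 to 6.03 in masses. The 3 lymphatic genes ran from 4.69 to 6.25 in esophagus, from 4.999 to 5.18 in control forestomach and from 5.24 to 5.57 in masses.

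**Figure D1:**
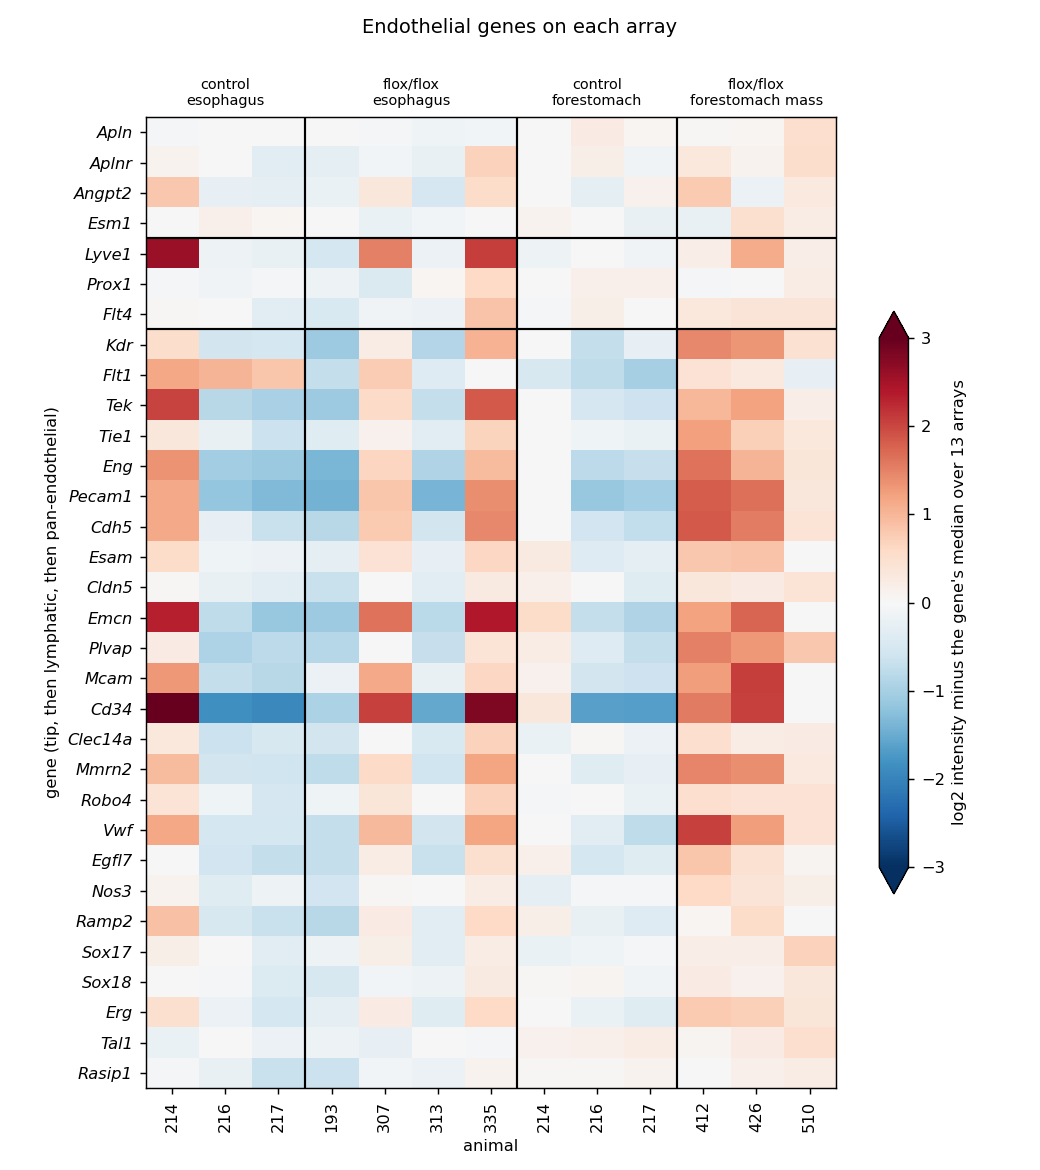
Log2 intensity of the 32 members (rows) on the 13 arrays (columns, by animal number, grouped by tissue and genotype), as the difference from the median of each gene over all arrays; red is above and blue below, and differences beyond 3 take the end colour. Masses 412 and 426 and esophagus arrays 214, 307 and 335 are red for most pan-endothelial genes, and the tip genes at the top stay pale.

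In the forestomach, the question was which vessel genes differed between the flox/flox masses and control epithelium. All 31 members tested had a higher mean in the masses (51% of all genes did), with a median log2 change of 0.68 against 0.0062 over all genes tested. Only 1 member passed the test over all genes, Plvap (called higher: 1 of 31, where 2.31% of all genes were called higher; called lower: 0 of 31, where 8.4% were; 10.7% were called in either direction). In 19 of the 31 the lowest mass lay above the highest control, which held for 10.3% of all genes; in 0 of 31 did every mass lie below every control, against 17.5%. At an unadjusted p under 0.05 there were 13 members, all higher, against 24.8% of all genes in either direction. The members were chosen with these results known, so the counts describe the list and test nothing. The spread in the fit is shared by all 4 groups, and the esophagus arrays spread these genes widely, which sets the standard errors (SE) below.

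Plvap, the protein of the diaphragms of fenestrated vessels, was 8.19, 7.97 and 7.48 in masses 412, 426 and 510. In controls 214, 216 and 217 it was 6.89, 6.29 and 5.97, so the groups did not overlap. It rose by 1.497 (SE 0.39, n = 3 and 3, 2.82-fold, adjusted p = 0.0305 by limma). The call was lost without forestomach control 216 or 217 or mass 412 or 426 (adjusted p = 0.0950, 0.118, 0.0909 and 0.0608) and with array weights (0.0549).

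Among the receptors, all 5 had masses above controls on every array, which held for 10.3% of all genes. Kdr, the main signalling receptor for VEGF, was 7.14, 7.002 and 6.15 in masses 412, 426 and 510 and 5.69, 4.96 and 5.45 in controls 214, 216 and 217. The difference of 1.39 (SE 0.51, adjusted p = 0.112 by limma) did not pass. Eng, a co-receptor for TGF-beta and BMP ligands, was 8.21, 7.60 and 6.95 in the masses and 6.58, 5.80 and 5.89 in the controls in the same animal order. Mass 510 was the lowest mass and control 214 the highest control, and they came nearest to each other. Eng differed by 1.498 (SE 0.72, adjusted p = 0.223). Tek, the angiopoietin receptor, differed by 1.18 (SE 0.82), its relative Tie1 by 0.86 (SE 0.31) and Flt1, a high-affinity VEGF receptor that limits VEGF signalling through Kdr, by 0.91 (SE 0.32), with adjusted p = 0.425, 0.106 and 0.0920.

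Of the 3 widest differences among the members, all were junction and surface genes. Pecam1, the platelet-endothelial adhesion molecule CD31, was 8.63, 8.47 and 7.16 in masses 412, 426 and 510 and 6.82, 5.69 and 5.80 in controls 214, 216 and 217. Cdh5, the cadherin of endothelial junctions and a partner of p120-catenin, was 7.76, 7.44 and 6.33 in the masses and 5.92, 5.35 and 5.18 in the controls. Both genes separated the groups, with differences of 1.98 (SE 0.84, adjusted p = 0.167) and 1.70 (SE 0.62, adjusted p = 0.110 by limma). Cd34, a sialomucin of vessels and of fibroblasts, was 8.54, 9.03 and 6.99 in the masses and 7.32, 5.36 and 5.32 in the controls, so mass 510 lay under control 214. Its difference of 2.19 was the widest of all members, and its SE of 1.52 was the widest too (adjusted p = 0.421 by limma). Emcn, Mcam and Esam likewise overlapped between the groups, whereas Mmrn2, a matrix protein of vessels, its binding partner Clec14a, Robo4 and Cldn5 did not. The differences of these 4 ran from 0.40 for Cldn5 to 1.25 for Mmrn2 (adjusted p = 0.163 to 0.438).

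Vwf, which tethers platelets to injured vessel walls, was 8.73, 7.94 and 7.12 in masses 412, 426 and 510 and 6.69, 6.37 and 5.93 in controls 214, 216 and 217. It differed by 1.60 (SE 0.61, adjusted p = 0.121 by limma). Nos3, the endothelial nitric oxide synthase, did not overlap either, at 6.65 to 7.08 against 6.22 to 6.44. Egfl7 and the adrenomedullin co-receptor Ramp2 overlapped between the groups and differed by 0.69 (SE 0.34) and 0.35 (SE 0.42).

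Among the regulators 0 of 5 were called, where 2.31% of all genes were called higher and 8.4% lower. In 3 the masses lay above the controls without overlap, as in 10.3% of all genes. Erg, an ETS factor that keeps endothelial cells in their state, was 6.20, 6.14 and 5.78 in masses 412, 426 and 510 and 5.42, 5.21 and 5.07 in controls 214, 216 and 217 (difference 0.81, SE 0.28, adjusted p = 0.0968 by limma). Sox17 and Sox18, SOX factors of arterial and lymphatic development, differed by 0.48 (SE 0.18) and 0.24 (SE 0.17), and their groups did not overlap. In Sox17 and Sox18 mass 510 was the highest of the masses, unlike in Erg and in most surface genes. Tal1, a factor of blood and endothelial precursors, and Rasip1, a regulator of vessel lumens, differed by 0.11 (SE 0.12) and 0.07 (SE 0.19).

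**Figure D2:**
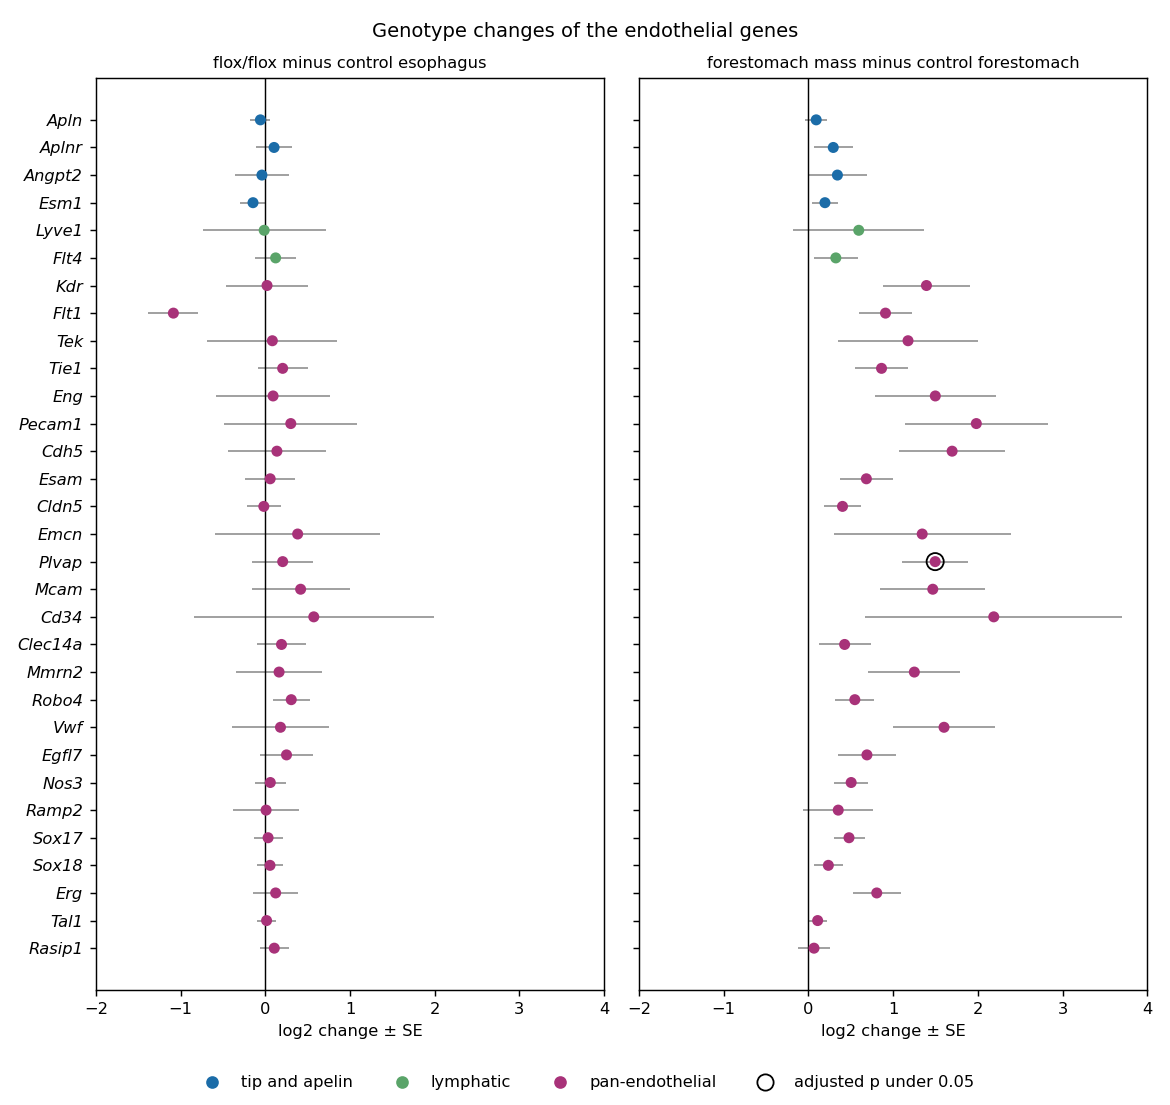
Log2 change with its SE for the 31 members tested, in esophagus (flox/flox minus control, 4 and 3 arrays) and in forestomach (mass minus control, 3 and 3 arrays); colours give the role and a ring marks an adjusted p under 0.05. All points lie right of 0 in the forestomach, Plvap is the only ringed gene, and in the esophagus Flt1 stands alone at -1.08.

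Mass 510 stood apart from the other masses. It was the lowest of the 3 in 18 of the 25 pan-endothelial genes, against 30% of all genes tested, and in 0 of the 7 tip and lymphatic genes. Control 214 was the highest of the 3 forestomach controls in 18 of the 25, against 35.9% of all genes, and in 1 of the 7 others. The same animal gave the esophagus control with high vessel genes. Pan-endothelial genes therefore had their narrowest gap between mass 510 and control 214, where the list means were 6.55 and 6.32.

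Markers of other cells of the layer beneath the epithelium moved with the vessel genes in the forestomach. The mean of 13 fibroblast and matrix genes was 6.84 to 8.32 in masses and 6.30 to 6.82 in controls. That of 13 pericyte and smooth muscle genes was 6.72 to 9.04 against 6.18 to 7.22, and that of 12 macrophage genes 6.47 to 7.32 against 6.01 to 6.11. The pericyte ranges overlapped. Fibroblast genes had a higher mean in the masses in 13 of 13, pericyte genes in 11 of 13 and macrophage genes in 11 of 12 tested (51% of all genes). By limma 0 genes of these lists were called higher, where 2.31% of all genes were. Of the pericyte list, Notch3 fell by 0.41 (adjusted p = 0.0420). Mass 510 was the lowest mass and control 214 the highest control for the fibroblast and pericyte lists too. Striated muscle genes did not separate the groups, at 5.62 to 5.95 in masses and 5.64 to 5.84 in controls. Genes of platelets, which also make Pecam1 and Vwf, had list means of 6.05 to 6.90 in masses against 5.55 to 5.84. Of these genes 0 of 5 were called (10.7% of all genes in either direction), with a median change of 0.18. Groups without overlap were found in 0 of 5, against 10.3% of all genes higher and 17.5% lower. The highest of the platelet list means, in mass 412, goes with Ppbp, which was 9.86 there, 5.10 in mass 426 and 4.19 in mass 510. Mast cell genes were 5.07 to 6.12 against 4.86 to 5.08, with 0 of 6 called (10.7% of all genes in either direction). Among the squamous genes, Dsg3 rose by 1.37 and Krt4 changed by -0.56 (adjusted p = 0.00258 and 0.0178). The part of these cells in the vessel gene result was not tested.

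**Figure D3:**
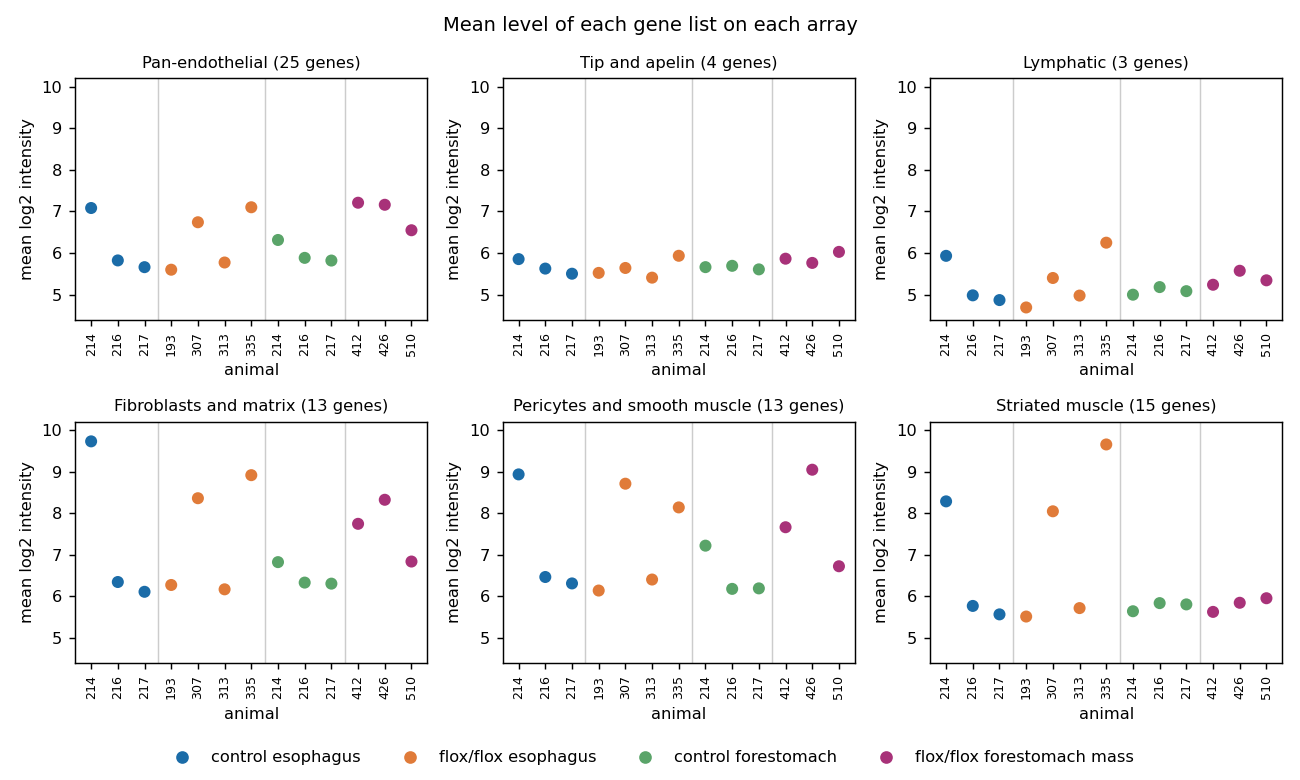
Mean log2 intensity of 3 classes of endothelial genes and of 3 marker lists on each array (horizontal axis, animal number; colours, groups). Esophagus arrays 214, 307 and 335 are high for pan-endothelial, fibroblast, pericyte and striated muscle genes, whereas all 3 masses lie above the forestomach controls for pan-endothelial genes. For fibroblast genes mass 510 is level with control 214, for pericyte genes it lies below it, and striated muscle genes do not separate the groups.

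In the esophagus, the comparison asked whether vessel genes differed between flox/flox and control epithelium without a mass. By limma 0 of the 31 members were called in either direction, where 0% of all genes were called higher and 0.0126% lower. At an unadjusted p under 0.05 there was 1, Flt1, against 6.98% of all genes, and 0 members were called under any of the 23 alternatives. The median change was 0.10, and 25 of 31 were above 0, against 51.6% of all genes. The genotypes did not overlap in 2 members, Flt1 and Esm1, both lower in flox/flox (6.1% of all genes), and in 0 members higher (4.18%). The sign of the median change over the members rested on single arrays: that median was -0.14 without flox/flox 335 and 0.46 without control 214.

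Array by array, the esophagus levels went with the striated muscle genes and not with genotype. Control 214 and flox/flox 307 and 335 all lay above the other 4 arrays in 24 of the 32 members, a pattern found in 7.19% of all genes tested. For Pecam1 these arrays had 7.97, 7.66 and 8.22 in turn; controls 216 and 217 had 5.67 and 5.50, and animals 193 and 313 had 5.42 and 5.43. Emcn was 7.35, 6.64 and 7.40 on the high arrays and 3.88 to 4.25 on the others, and Cd34 10.82, 9.04 and 9.79 against 5.06 to 6.04. On the same 3 arrays fibroblast genes were 8.36 to 9.73 against 6.11 to 6.34, and pericyte genes 8.14 to 8.93 against 6.14 to 6.46. Macrophage genes were 6.66 to 7.64 there and 5.55 to 6.49 on the other 4. The 8 members without the split were Apln, Aplnr, Esm1, Prox1, Flt4, Flt1, Sox18 and Tal1. The part of muscle, fibroblast, pericyte and macrophage RNA in these levels was not tested.

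Without these 3 esophagus arrays the forestomach comparison called 12 of 31 members and not 1, all higher, where 2.47% of all genes were called higher in that fit and 2.31% with all arrays. The arrays left out are those on which these genes stood high, so the spread of these genes falls by construction and the count is a description of that fit. They were Kdr, Flt1, Tek, Tie1, Eng, Pecam1, Cdh5, Plvap, Mmrn2, Robo4, Vwf and Erg, with adjusted p = 0.0102 to 0.0388 by limma. The forestomach values are the same in both fits and the spread is not: the SE of Cdh5 went from 0.62 to 0.34 and that of Pecam1 from 0.84 to 0.40. A fit to the 6 forestomach arrays by themselves called 1 member, higher, where 0.766% of all genes were called higher and 2.95% in either direction.

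Flt1 went its own way. Its esophagus levels were 8.44, 8.25 and 8.59 for controls 216, 217 and 214. Animals 193, 307, 313 and 335, all flox/flox, had 6.70, 8.20, 7.05 and 7.43. Every flox/flox animal lay below every control, although animal 307 came close to control 217. The mean went from 8.43 ± 0.17 (SD, n = 3) to 7.34 ± 0.64 (SD, n = 4), a difference of -1.08 (SE 0.30, adjusted p = 0.498 by limma). Controls 216 and 217, where Pecam1, Cdh5 and Emcn were at their low end, had Flt1 as high as control 214. Without the 3 arrays high in striated muscle genes the difference was -1.47 (SE 0.25, adjusted p = 0.214), and without flox/flox 307 it was -1.37 (SE 0.22, adjusted p = 0.0530).

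Between the control tissues, which came from the same animals, Flt1 was the only member called. In forestomach it was 6.95, 6.66 and 6.43 in animals 214, 216 and 217, against 8.59, 8.44 and 8.25 in the esophagus of the same animals. It was lower in forestomach in 3 of 3 animals, with a change of -1.75 (adjusted p = 0.00628 by limma, SE 0.32, 3.36-fold lower). Lower calls were 1 of 31 where 3.16% of all genes were called lower, and higher calls 0 of 31 where 3.51% were called higher (6.67% in either direction). Of the 31, 12 were above 0, against 53% of all genes, and the median was -0.11. The tissues did not overlap in 2 members higher in forestomach, Tal1 and Rasip1 (18% of all genes), and in 1 lower, Flt1 (19.3%). At an unadjusted p under 0.05 there were 2, Flt1 and Tal1, against 21.6% of all genes. The Flt1 call was lost without both arrays of animal 214 (adjusted p = 0.0576). With the animal as a random replicate block Tal1 was also called, higher in forestomach by 0.30 (adjusted p = 0.0454, and 0.161 without the block), where 16.8% of all genes were called. With the animal as a fixed block in the control arrays Tal1 was not called (adjusted p = 0.0776). In forestomach its 3 controls were 6.72 to 6.799, above the 6.38 to 6.59 of the esophagus. Kdr differed by -0.13 (SE 0.51), Cdh5 by -0.51 (SE 0.62) and Plvap by 0.20 (SE 0.39) between the tissues, none of them called.

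The genotype change of Flt1 ran in opposite directions in the 2 tissues, -1.08 in esophagus and 0.91 in forestomach. The test of the difference itself gave 1.995 (SE 0.43, unadjusted p = 0.000633, adjusted p = 0.0897 by limma), so it did not pass. With the animal as a random replicate block it did (adjusted p = 0.0336 by limma), as it did without flox/flox 307 (0.0253) or mass 510 (0.0335). In these fits 0.913%, 0.126% and 2.37% of all genes were called. None of the other 30 members tested was called for the difference, where 0.0819% of all genes were called higher and 0.0567% lower (0.139% in either direction). Of all 31 members 30 had a difference above 0, against 48.5% of all genes, and 2 had an unadjusted p under 0.05, against 10.5%; after Flt1 the next in order of p was Plvap (1.29, SE 0.53, adjusted p = 0.421).

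**Figure D4:**
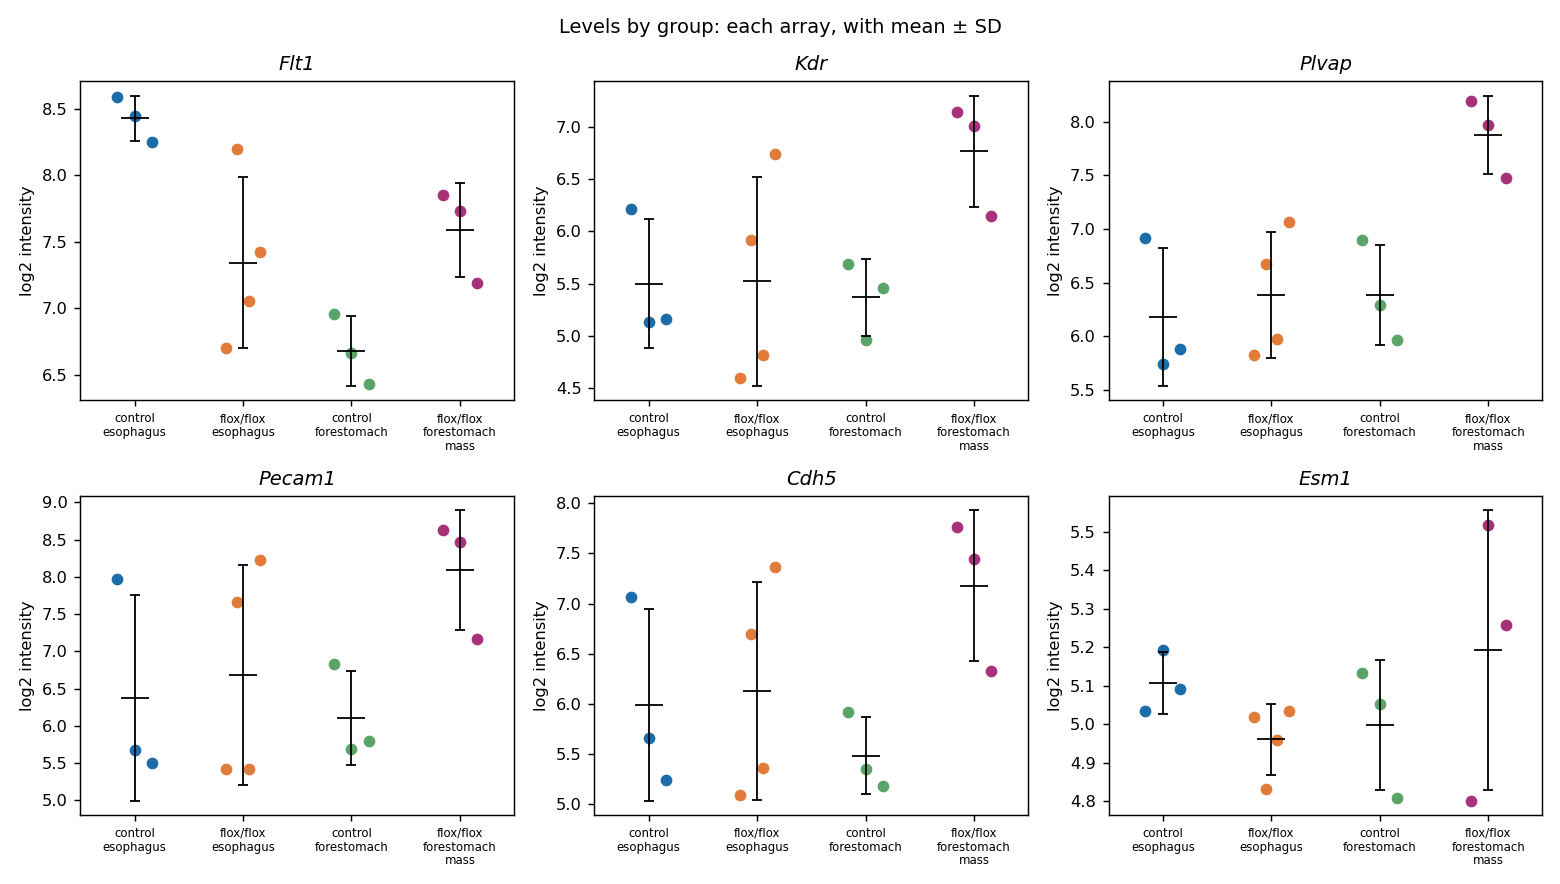
Log2 intensity of Flt1, Kdr, Plvap, Pecam1, Cdh5 and Esm1 on each array by group, with the group mean and SD; each panel has its own vertical scale. Flt1 is highest in control esophagus, Kdr, Plvap, Pecam1 and Cdh5 are highest on average in the masses, and the Esm1 groups of the forestomach overlap within a range of less than 1.

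Tip and apelin genes showed no call in any comparison. Esm1, a proteoglycan secreted by tip cells, was 4.80, 5.52 and 5.26 in masses 412, 426 and 510 and 5.13, 5.05 and 4.81 in forestomach controls 214, 216 and 217. The lowest and the highest forestomach values of Esm1 were thus both masses (difference 0.20, SE 0.16, adjusted p = 0.503 by limma). Angpt2, the angiopoietin that loosens vessels, was 6.17, 5.22 and 5.67 in the masses and 5.39, 5.13 and 5.51 in the controls. Apln, the ligand, stayed between 5.93 and 6.57 on all 13 arrays, and Aplnr, its receptor, between 5.76 and 6.78. In the masses these 4 genes had a median difference of 0.24, and the 25 pan-endothelial genes one of 0.86. Whether the classes differ was not tested. On all 13 arrays Esm1 stayed between 4.80 and 5.52, close to the filter of 5, and Angpt2 between 4.89 and 6.19. Low genes near background have understated changes, so small differences here do not show that tip genes stayed level. In flox/flox esophagus Esm1 was 4.83 to 5.03, below the 5.03 to 5.19 of controls, by a mean of 0.14 in log2 (adjusted p = 0.963).

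No lymphatic member was called in any comparison, and in the esophagus Lyve1 was high on the arrays high in muscle genes. Lyve1 was 8.09 in esophagus control 214 and 7.01 and 7.57 in flox/flox 307 and 335, and 4.97 to 5.34 on the other 4. In masses 412, 426 and 510 it was 5.69, 6.60 and 5.70, just above the 5.33 to 5.49 of controls (difference 0.59, SE 0.78, adjusted p = 0.703 by limma). Flt4 was 5.54 to 5.61 in masses and 5.16 to 5.40 in controls, groups that did not overlap, and it reached 6.08 in flox/flox esophagus 335. Prox1 stayed between 4.08 and 5.10 on all arrays, with its highest value also in flox/flox esophagus 335. Of 8 other lymphatic genes tested 8 were above 0, and 1 was called (2.31% of all genes were called higher): Pdpn, the podoplanin of lymphatic vessels and of basal squamous cells, rose by 1.35 in the masses (SE 0.39, adjusted p = 0.0449). Between the control tissues Pdpn and Tbx1 were lower in forestomach (changes -1.73, SE 0.39, and -0.88, SE 0.16, adjusted p = 0.0196 and 0.00654). Mmrn1 and Reln, markers of lymphatic vessels, were highest in flox/flox esophagus 335, at 7.18 and 7.09.

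The other genes of vessel growth gave few calls. Of 19 angiogenic ligands and sprouting factors tested in the forestomach, 2 rose in the masses and 0 fell, where 2.31% of all genes were called higher and 8.4% lower. They were Thbs1, an inhibitor of vessel growth (1.78, SE 0.38, adjusted p = 0.0136 by limma), and the guidance factor Sema3c (2.43, SE 0.60, adjusted p = 0.0243). Thbs1 was 9.62, 8.86 and 8.10 in masses 412, 426 and 510, against 6.88 to 7.22 in controls. Vegfa, the chief ligand of Kdr, was 8.01, 8.31 and 8.07 in the masses and 8.75, 8.41 and 8.502 in the controls. Every mass thus lay below every control, and Vegfa was not called. Most of the list went the other way: 15 of the 19 were above 0 (51% of all genes), with a median of 0.41. Masses lay above controls without overlap in 9 of the 19 (10.3% of all genes). They lay below in 2, Vegfa among them (17.5% of all genes). Of 31 other vascular genes tested, 1 was called higher and 1 lower, where 2.31% of all genes were called higher and 8.4% lower. The arterial connexin Gja5 rose by 0.61 (SE 0.18, adjusted p = 0.0475 by limma). The ephrin Efnb2, which squamous cells also make, changed by -0.80 (SE 0.13, adjusted p = 0.00422). The median difference of the 31 was 0.48, and 30 of 31 were above 0. Of 8 genes of endothelial activation 1 was called, also to be read against 2.31% of all genes: the selectin Sele rose by 0.51 (SE 0.15, adjusted p = 0.0440), all 8 were above 0, and the median was 0.62. In the esophagus 0 genes of these 4 lists were called, where 0.0126% of all genes were. Between the control tissues Efnb2 was called higher in forestomach (0.497, SE 0.13, adjusted p = 0.0462 by limma). Pdpn and Tbx1 were called lower there, as given above.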

How the data were processed

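Total RNA of 13 samples was measured on a mouse Affymetrix gene array. The authors deposited linear intensity per probe set, from GCRMA per the submitters' processing notes; its version is not given in the sources used here, and raw array files were not used here. Of 34729 probe sets, 21633 have 1 gene symbol in the platform annotation, 1306 several and 11790 none. Values under 1 were set to 1 and taken to log2, and each gene kept its probe set of highest mean. A gene was tested if above 5 on at least 3 arrays. Group means of all 13 arrays were fitted by limma 3.58.1 under R 4.3.3 (lmFit and eBayes, 9 residual degrees of freedom), with Benjamini-Hochberg adjustment over 15875 genes and calls at an adjusted p under 0.05. The fit was tested on simulated data. The number of arrays limits the precision.

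Members, gene lists and alternatives were chosen with earlier results of these data known, and the named genes are all members and the called genes of the fixed lists; Vegfa, Mmrn1 and Reln were named after their values were seen. The control arrays of an animal are paired: deviations from the group means correlated over genes between both tissues at 0.401 (animal 214), 0.398 (216) and 0.315 (217). Across tissues of unlike animals the range was -0.425 to 0.129. Over the members tested, the same animals had 0.797 (214), 0.690 (216) and 0.650 (217), and unlike animals -0.787 to 0.682. The members by themselves thus did not set animals 216 and 217 apart. Other samples are different animals. The intensity of a probe set is not comparable between genes, so levels were compared between arrays only. Marker lists of adipocytes, mast cells, T and NK cells, red blood cells and Schwann cells were also read. They had 0 genes called between genotypes in either tissue. Between control tissues Fabp4 (adipocytes) was higher and Cd5 (T and NK cells) lower in forestomach. Of the macrophage, pericyte and squamous lists, Cd14 was higher and Ndufa4l2, Krt15 and Col17a1 were lower there. Alternatives covered the filter, the offset before log2, probe set means, quantile normalization, the arrays fitted, array weights, the animal as a block and leaving out arrays.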

Additional observations from a re-analysis of the deposited data

Results flagged for a closer look

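Flt1 was singled out because its genotype changes had opposite signs on every array: each flox/flox esophagus lay below each esophagus control, and each forestomach mass lay above each forestomach control. The difference of the changes was 1.995 (SE 0.43), and limma's test of it gave an adjusted p of 0.0897, so it did not pass the threshold over all genes. Over its 22 alternatives the difference ran from 1.78 to 2.38 and the adjusted p from 0.0253 to 0.364, with 3 of 22 under 0.05. In flox/flox esophagus, the only group of 4, the gap of the highest or lowest animal over the group's range stayed under Dixon's 95% critical value for 4 samples in all 32 members, with Aplnr nearest to it at 0.808 (animal 335). This ratio looks for 1 deviating animal and cannot flag a pair, so it does not show that the group was even. Emcn was 6.64 and 7.40 in animals 307 and 335 and 3.93 and 4.20 in 193 and 313, with a ratio of 0.22 for the highest.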

How the results depend on the processing

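Calls rest on few arrays. Members called in the forestomach were 1, 12 without the 3 esophagus arrays 214, 307 and 335 (2.31% and 2.47% of all genes called higher), 0 with array weights (1.4%), and 0 to 2 without single arrays (0.816% to 4.51%). In the control tissues there were 1, 3 with array weights, 2 with the animal as a random replicate block and 1 with it as a fixed block (6.67%, 23.9%, 16.8% and 16.9% of all genes called). There were 0 without both arrays of animal 214 (1.89% of all genes called), a setting chosen after seeing the data. Every setting without a single array kept the count at 1, where 3.4% to 9.93% of all genes were called. For the difference of genotype changes there were 0, and 1 with the random replicate block (0.139% and 0.913% of all genes called). Without single arrays there were 0 to 1, where 0.0633% to 2.37% of all genes were called. The esophagus count was 0 in every setting, where at most 0.0442% of all genes were called. Median changes of members without single arrays ran from -0.14 to 0.46 in esophagus, from 0.56 to 0.88 in forestomach, from -0.30 to 0.22 between control tissues and from 0.32 to 0.79 for the difference. With log2 intensity above 7 on at least 3 arrays, which leaves 13 members, the median was 1.47 in forestomach and 1.29 for the difference. In the forestomach 30 or 31 members were above 0 in each setting with at least 30 tested. The random replicate block changed no call of a member beyond Tal1 between control tissues and Flt1 for the difference, and the fixed block, run for the control tissues only, changed none. The second forestomach call, without flox/flox esophagus 307, was Flt1. The cause of these shifts was not tested, except that the forestomach changes are the same without the 3 esophagus arrays and only their SE is smaller. Intensities are not counts, so depth sets no limit here; low genes near background have understated changes.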
